A study of Mus musculus with 24 samples.

Results

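The replication-dependent histone genes encode the core histones H2A, H2B, H3 and H4 and the linker histone H1 that package newly copied DNA. They were taken here as every gene in the count data whose symbol begins with Hist1h, Hist2h, Hist3h or Hist4h, which gave 70 members among 49568 gene symbols. Their levels were described in hippocampal RNA-seq libraries from 24 aged male mice, 1 mouse per library. Wild-type (WT) mice and MSK1 kinase-dead (MSK1 KD) mice, which carry a knock-in point mutation in Rps6ka5 that removes the kinase activity of mitogen- and stress-activated kinase 1, were housed in standard cages or in an enriched environment with larger cages, a running wheel, tubes, toys and a ladder. Enrichment began at 18 months and the mice were 21 to 23 months old when the hippocampus was taken. The 4 groups were standard-housed WT (WTSH), enriched WT (WTEE), standard-housed MSK1 KD (KDSH) and enriched MSK1 KD (KDEE), with 6 mice each. Both genotypes were on a C57BL/6J background and were bred as separate homozygous lines, so genotype and line cannot be told apart. The transcript is still made and carries the changed base, which gene counts do not show, so the level of Rps6ka5 does not check the genotype labels.

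The study set aside samples WTSH-4, WTSH-7 and KDSH-6 because each correlated poorly within its own group. It also saw contamination with ribosomal RNA, described in its text for WTSH-4 and WTSH-7. The legend of a supplementary figure names KDSH-6 too, at a lower level. These are called the left-out libraries below, and the other 21 are called the kept libraries, with 4 WTSH, 6 WTEE, 5 KDSH and 6 KDEE. Group comparisons were made on the kept libraries. The kept libraries held 27410239 to 71907130 reads on genes, and the left-out libraries held 15800187 (WTSH-4), 23318036 (WTSH-7) and 39585901 (KDSH-6).

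Most replication-dependent histone mRNAs are not polyadenylated. They end in a conserved stem-loop that is bound by stem-loop binding protein (SLBP), and their amounts rise when DNA is copied in S phase and fall when it is done. In non-dividing cells such as neurons, some histone genes are known to give polyadenylated transcripts that read past the stem-loop to a distal signal. The libraries were made by pulling RNA down on poly-T beads, which capture polyadenylated RNA, so the level measured for a histone gene is the amount of its mRNA that came through that capture and not its total mRNA.

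The genes lay in 4 clusters on the mouse genome (GRCm38), with 56 on chromosome 13 (Hist1), 10 on chromosome 3 (Hist2), 3 on chromosome 11 (Hist3) and 1 on chromosome 6 (Hist4). Of the 70, 67 were annotated as protein coding and 3 as pseudogenes. The stem-loop was searched as the letters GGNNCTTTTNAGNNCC, where N is any base, on the transcribed strand within 100 bases after an annotated stop codon. It was present in 44 of the 67 protein-coding members. Over the whole annotation 47 of 21951 protein-coding genes (0.214%) held these letters there, and the other 3 were H2afx, H2bfm and Lrrc75b. The same letters on the opposite strand were found in 1 gene. The absence of the letters says only that they were not in the annotated window, and 13 members had no annotated base after a stop codon.

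The stem-loop was printed for 9 members named in the results. These were the 5 that were called between left-out and kept libraries (Hist1h4d, Hist1h4c, Hist1h3e, Hist1h1e and Hist1h4h) and 4 of the 6 with the highest levels (Hist1h1c, Hist3h2ba, Hist3h2a and Hist1h2be). Of the 5, Hist1h4d and Hist1h3e entered that test only through their counts in the left-out libraries. The capitals mark the stem-loop letters, with 5 bases on each side, and the coordinates are those of the capitals.
Hist1h4d, chr13:23581950-23581965, plus strand: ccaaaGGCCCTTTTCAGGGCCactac
Hist1h4c, chr13:23698089-23698104, minus strand: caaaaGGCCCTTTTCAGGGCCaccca
Hist1h4h, chr13:23531458-23531473, plus strand: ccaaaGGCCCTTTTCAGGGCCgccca
Hist1h3e, chr13:23561903-23561918, minus strand: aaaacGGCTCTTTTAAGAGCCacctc
Hist1h1e, chr13:23621782-23621797, minus strand: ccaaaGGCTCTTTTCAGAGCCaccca
Hist1h1c, chr13:23739512-23739527, plus strand: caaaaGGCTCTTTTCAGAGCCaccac
Hist3h2ba, chr11:58949349-58949364, plus strand: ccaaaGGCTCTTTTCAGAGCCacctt
Hist3h2a, chr11:58955172-58955187, plus strand: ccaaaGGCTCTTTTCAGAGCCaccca
Hist1h2be, chr13:23585531-23585546, minus strand: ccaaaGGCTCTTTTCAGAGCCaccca

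The stem-loop thus stood in the 3′ end of members that differed between the libraries and of members that did not. The 3 H4 genes shared the form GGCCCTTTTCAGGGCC, which 7 members carried, whereas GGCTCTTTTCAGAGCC was the most frequent form with 26 members. The annotated transcript went on past the stem-loop by 770 bases in Hist1h4d, 454 in Hist1h4c, 369 in Hist1h3e, 1153 in Hist1h1e and 46 in Hist1h4h, and by 840 in Hist1h1c, 169 in Hist3h2ba, 1643 in Hist3h2a and 1861 in Hist1h2be.

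A poly(A) signal, the hexamer AATAAA in the last 40 bases of an annotated transcript, was found in 15 of the 70 members. The same was true of 64.9% of protein-coding genes. The variant ATTAAA was present there in 5 members, of which 2 (Hist1h4h and Hist1h4i) had no AATAAA, against 21.3% of protein-coding genes. Of the 6 members with the highest levels, 5 had an annotated transcript that ended near AATAAA. For Hist1h2be this was not the transcript with the stem-loop. Their signals are printed as 30 bases from the transcript end or, for Hist3h2a, 30 bases from the hexamer on, and the capitals mark AATAAA.
Hist1h1c, chr13:23740338-23740367, plus strand: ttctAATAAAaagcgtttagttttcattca
Hist3h2ba, chr11:58949504-58949533, plus strand: attAATAAAtttggttcaattttggccaca
Hist2h2be, chr3:96223709-96223738, plus strand: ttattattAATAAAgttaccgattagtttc
Hist3h2a, chr11:58956797-58956826, plus strand: AATAAAataagagtacgtgtataacataag
Hist1h2be, chr13:23618980-23619009, minus strand: tcaagacaagaaataAATAAAtgaaaatta

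Both the stem-loop letters and AATAAA were found in 11 members and neither in 22. In Hist1h2be and Hist1h2bp the stem-loop and the AATAAA belonged to different annotated transcripts. The AATAAA of Hist1h2be (chr13:23618980-23619009) lay upstream of its stem-loop (chr13:23585531-23585546) on the minus strand. It is therefore not a signal past that stem-loop. Hist1h2bc, the highest member, had neither in its annotated transcript, which has 2 exons and spans chr13:23684199-23692908. Hist2h2be had the signal and no stem-loop letters. Transcripts of more than 1 exon were annotated for 5 members, all of them H2B genes. These were Hist1h2bc, Hist1h2be and Hist1h2bp with up to 2 exons, and Hist1h2bq and Hist1h2br with up to 3.

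Histone counts in the aged hippocampus were held by a handful of members. Levels are given as CPM, the counts scaled to a common library size with trimmed mean of M-values factors, as mean ± SD over the 21 kept libraries. Hist1h2bc, an H2B gene, had the highest level at 31.0 ± 8.82 CPM. The linker histone gene Hist1h1c followed at 18.9 ± 7.20 CPM. The H2B genes Hist3h2ba and Hist2h2be stood at 12.95 ± 2.31 and 10.6 ± 1.32 CPM. The H2A gene Hist3h2a stood at 9.46 ± 1.37 CPM and the H2B gene Hist1h2be at 5.25 ± 1.19 CPM. A drop followed, with the H4 gene Hist1h4i next at 1.96 ± 0.618 CPM. Per kilobase of exon, which takes account of gene length, the order of the highest members changed, since Hist1h2bc stood at 26.8 CPM per kb, Hist3h2ba at 21.1, Hist1h1c at 12.1, Hist3h2a at 4.41, Hist2h2be at 4.03 and the short Hist1h4k at 3.14. From 0% (Hist2h2be) to 64.3% (Hist1h4k) of the 100-base stretches of these members also occurred in another annotated transcript. Reads without a unique place were not counted, so the comparison between genes stays uncertain. In bulk tissue, fewer cells with a transcript and less of it per cell cannot be told apart.

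**Figure D1:**
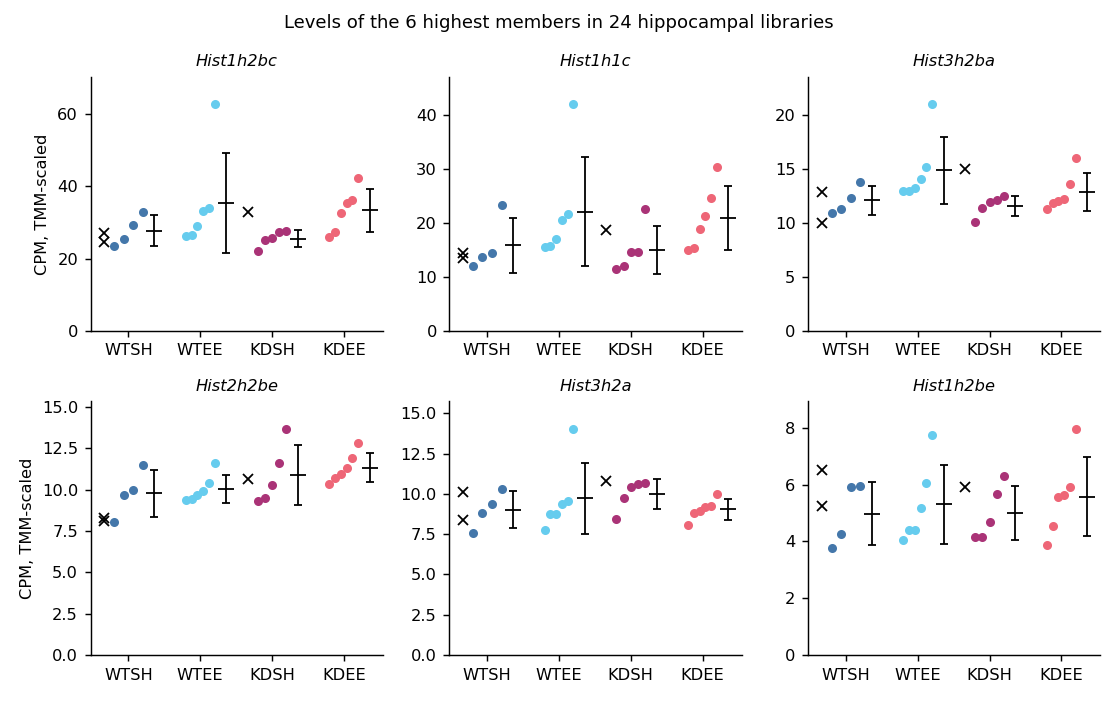
Level in CPM of the 6 highest members in each of the 24 libraries (points, crosses for the left-out libraries), by group, with the mean ± SD over the kept libraries of each group. Hist1h2bc and Hist1h1c reached 62.8 and 42.0 CPM in WTEE-10, the highest point of each panel, and the left-out libraries lay within the range of the kept ones for all 6 genes except Hist3h2ba in WTSH-4, at 9.93 CPM.

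These 6 members held 88.3% ± 1.35 (SD, n = 21) of the histone counts of a kept library, with a range from 86.4 to 90.5%. By class, H2B genes held 61.2% of the counts, H1 genes 19.9%, H2A genes 9.85%, H4 genes 6.91% and H3 genes 2.18%. The Hist1 cluster held 63.1%, the 3 genes of Hist3 held 22.8%, the 10 genes of Hist2 held 14% and the single Hist4 gene held 0.176%. The other members with the highest mean levels were the H4 genes Hist2h4 (1.76 ± 0.514 CPM), Hist1h4h (1.124 ± 0.508), Hist1h4k (0.979 ± 0.274) and Hist1h4j (0.449 ± 0.239), the H3 gene Hist2h3c2 (1.66 ± 0.613), the linker histone gene Hist1h1e (0.721 ± 0.165), the H2B gene Hist1h2bg (0.364 ± 0.0982) and the H2B pseudogene Hist3h2bb-ps (0.243 ± 0.083).

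Most members were close to the detection limit. A kept library had counts on 34 to 49 of the 70. Only 19 members passed the filter on low counts, and these held 98.5% of the 103267 histone counts. Of the 51 others, 9 had 0 counts in all 24 libraries, namely Hist1h2aa, Hist1h2ao, Hist1h2ap, Hist1h2ba, Hist2h2aa1, Hist2h2aa2, Hist2h2bb, Hist2h3b and Hist2h3c1. A floor of 3 counts corresponded to 0.0412 to 0.244 CPM, depending on the library, and it covers counting error only. The authors counted reads that aligned to 1 place and to 1 gene, without regard to strand. For the last 5 of these 9 every stretch of 100 bases occurred in another annotated transcript and every exon base lay on another listed gene, so their 0 counts do not measure expression. The exons of 26 members overlapped another listed gene, and these included all 20 H2A genes, whose levels are uncertain for that reason.

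Across the 21 kept libraries the log2 levels of Hist1h2bc and Hist1h1c varied together, with Pearson's r = 0.924 (n = 21) and 0.846 (n = 19) without WTEE-10 and KDEE-12. Both are on chromosome 13 and were measured in the same libraries, and the correlation is a description.

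**Figure D2:**
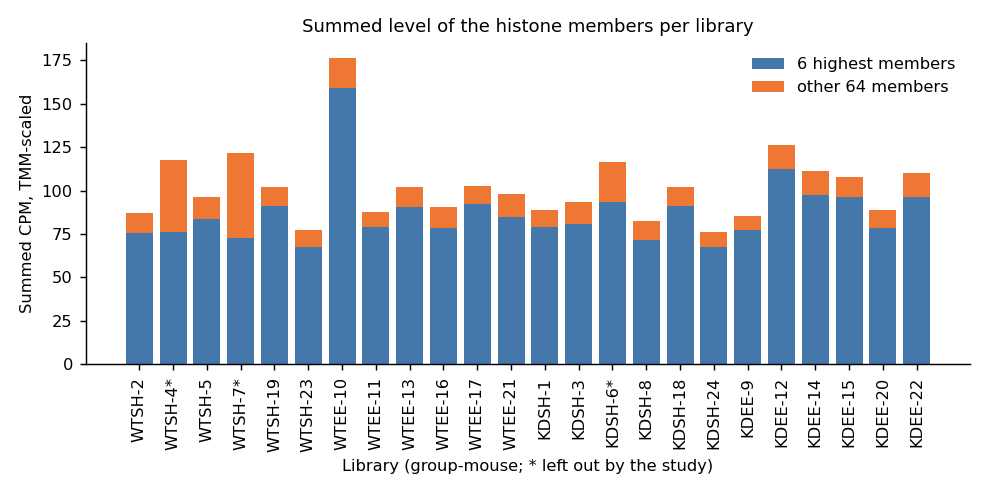
Summed CPM of the 70 members in each library, stacked for the 6 highest members and for the other 64 together. The other 64 made up 8.07 to 17.1 CPM in the kept libraries and 22.5 to 49.0 CPM in the left-out libraries, and WTEE-10 had the highest sum at 176 CPM.

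The comparison of enriched with standard-housed WT mice asked whether housing changed gene expression in the aged hippocampus. No histone gene passed the threshold of an adjusted p under 0.05 with an absolute log2 fold change over 0.38. This was 0 of 19 members tested, where 0% of the 20187 genes tested passed (edgeR quasi-likelihood test, Benjamini-Hochberg adjustment). At an unadjusted p under 0.05 it was 1 of 19 members, where 6.55% of all genes had such a p. DESeq2 called 2 genes in all and 0 members. The summed level of the 70 members was 90.7 ± 10.9 CPM in WTSH (n = 4, range 77.1 to 102) and 109 ± 33.3 CPM in WTEE (n = 6, range 87.7 to 176).

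The gene with the low p was Hist3h2ba. It stood at 10.9, 11.2, 12.3 and 13.8 CPM in WTSH and had a lowest value of 12.9, a median of 13.6 and a highest value of 21.0 CPM in WTEE. The groups overlapped, and the highest value was that of WTEE-10. Its log2 fold change was 0.30 (SE 0.13, adjusted p = 0.651 by edgeR). Hist1h2bc stood at 23.4, 25.4, 29.2 and 33.0 CPM in WTSH and at 26.2, 31.1 and 62.8 CPM (lowest, median, highest) in WTEE. Its log2 fold change was 0.34 (SE 0.19, adjusted p = 0.651 by edgeR). Hist1h1c stood at 11.97, 13.6, 14.4 and 23.3 CPM in WTSH and at 15.5, 18.7 and 42.0 CPM in WTEE, with a log2 fold change of 0.47 (SE 0.27, adjusted p = 0.651 by edgeR). For all 3 genes the groups overlapped. Without WTEE-10 the log2 fold changes were 0.18 for Hist3h2ba, 0.10 for Hist1h2bc and 0.19 for Hist1h1c (0.72 for Hist1h1c without WTSH-19), and the summed level of WTEE was 96.1 ± 6.73 CPM (n = 5). WTEE-10 also had the lowest summed level of neuron markers among the kept libraries, 3809 CPM against 5486 to 6781 CPM. The part of this in the histone levels was not tested.

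In MSK1 KD mice the comparison of enriched with standard housing also gave 0 of 19 members past the threshold, where 0% of all genes passed. At an unadjusted p under 0.05 it was 2 of 19 members, where 11.6% of all genes had such a p. DESeq2 called 14 genes in all and 0 members. The summed level was 88.5 ± 9.90 CPM in KDSH (n = 5, range 76.2 to 102) and 105 ± 15.3 CPM in KDEE (n = 6, range 85.3 to 126).

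The smaller of the 2 p-values was that of Hist3h2bb-ps, a processed H2B pseudogene at chr11:58954048-58954512 on the minus strand. It stood at 0.0928, 0.117, 0.126, 0.142 and 0.193 CPM in KDSH and at 0.264, 0.320 and 0.352 CPM (lowest, median, highest) in KDEE. Every KDEE library lay above every KDSH library, as was the case for 1.02% of all genes. These levels rested on 4 to 10 counts per KDSH library (31 in all) and 10 to 17 per KDEE library (85 in all). The log2 fold change was 1.20 (SE 0.25, adjusted p = 0.297 by edgeR). In WT mice the same gene stood at 0.161, 0.256, 0.262 and 0.349 CPM in WTSH and at 0.178, 0.230 and 0.333 CPM in WTEE, so that the KDSH libraries were the low ones.

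The other gene was Hist1h2bc. It stood at 21.96, 25.0, 25.7, 27.3 and 27.7 CPM in KDSH and at 26.1, 34.1 and 42.3 CPM in KDEE, with a log2 fold change of 0.38 (SE 0.18, adjusted p = 0.43 by edgeR). Hist1h1c had the next smallest p, with 11.4, 12.1, 14.5, 14.7 and 22.6 CPM in KDSH and 14.9, 20.04 and 30.4 CPM in KDEE, and a log2 fold change of 0.46 (SE 0.26, adjusted p = 0.467 by edgeR). The groups overlapped for both genes.

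Some markers of other cell types differed between the housing groups. All 5 red blood cell markers were higher in enriched mice of both genotypes at an unadjusted p under 0.05, with summed levels of 54.7 to 70.6 CPM in WTSH, 54.7 to 383 in WTEE, 36.1 to 75.1 in KDSH and 70.5 to 237 in KDEE. All 7 markers of choroid plexus epithelium, a tissue next to the hippocampus, were higher in KDEE than in KDSH at an unadjusted p under 0.05, and their summed level was 24.6 to 101 CPM in KDSH, 84.2 to 9526 in KDEE, 27.8 to 4306 in WTSH and 44.3 to 5828 in WTEE. In the same comparison 3 of the 5 pituitary markers could be tested and were lower, with summed levels of 0.850 to 236 CPM in KDSH and 1.20 to 2.06 CPM in KDEE. The value of 236 CPM was that of KDSH-8 alone, and the medians were 1.57 CPM in KDSH and 1.47 CPM in KDEE. In WT the summed level went the other way, with 0.991 to 1.79 CPM in WTSH and 1.26 to 26.1 CPM in WTEE. The choroid plexus markers summed to over 1000 CPM in 5 kept libraries (WTSH-19, WTEE-10, WTEE-13, KDEE-12 and KDEE-14). In these 5, Hist1h1c had 21.3 to 42.0 CPM with a median of 23.3, against 11.4 to 24.6 CPM with a median of 15.1 in the other 16. Hist1h2bc had 33.0 to 62.8 CPM with a median of 36.3 in these 5, against 21.96 to 35.5 CPM with a median of 26.9 in the other 16. Without these 5 libraries the log2 fold change with enrichment was 0.14 in WT and 0.25 in MSK1 KD for Hist1h2bc, 0.36 and 0.28 for Hist1h1c, and 1.28 in MSK1 KD for Hist3h2bb-ps. The part of these markers in the histone levels was not tested.

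Standard-housed MSK1 KD mice were compared with standard-housed WT mice to ask about genotype. There were 0 of 19 members past the threshold, where 0% of all genes passed, and 1 of 19 had an unadjusted p under 0.05, where 1% of all genes had one. DESeq2 called 0 genes in all. The member was again Hist3h2bb-ps, with a log2 fold change of -0.92 (SE 0.27, adjusted p = 0.99995 by edgeR) and with the KDSH libraries that also entered the comparison above. Hist1h3d, an H3 gene, had a log2 fold change of -0.81 (SE 0.46) and Hist2h2be of 0.15 (SE 0.11, 0.059 without KDSH-18 and 0.24 without WTSH-5), and the groups overlapped for all 3 genes.

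In enriched mice the genotypes differed in 0 of 19 members past the threshold, where 0% of all genes passed, and in 0 of 19 at an unadjusted p under 0.05, where 4.99% of all genes had one. DESeq2 called 118 genes in all and 0 members. The smallest p-values were those of Hist3h2ba (log2 fold change -0.21, SE 0.11, KDEE against WTEE), Hist2h2be (0.17, SE 0.097) and Hist3h2bb-ps (0.35, SE 0.21). Without WTEE-10 the value of Hist3h2ba was -0.089.

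The interaction, which is the log2 change with enrichment in WT minus that in MSK1 KD, passed the threshold for 0 of 19 members, where 0% of all genes passed. At an unadjusted p under 0.05 it was 1 of 19, where 3.26% of all genes had such a p. DESeq2 called 20 genes in all and 0 members. The member was Hist3h2bb-ps at -1.27 (SE 0.34, adjusted p = 0.441 by edgeR), followed by Hist1h3d at -0.96 (SE 0.60) and Hist3h2a at 0.25 (SE 0.18), which was 0.11 without WTEE-10. The 5 comparisons share samples, and their values for Hist3h2bb-ps are not independent of each other.

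**Figure D3:**
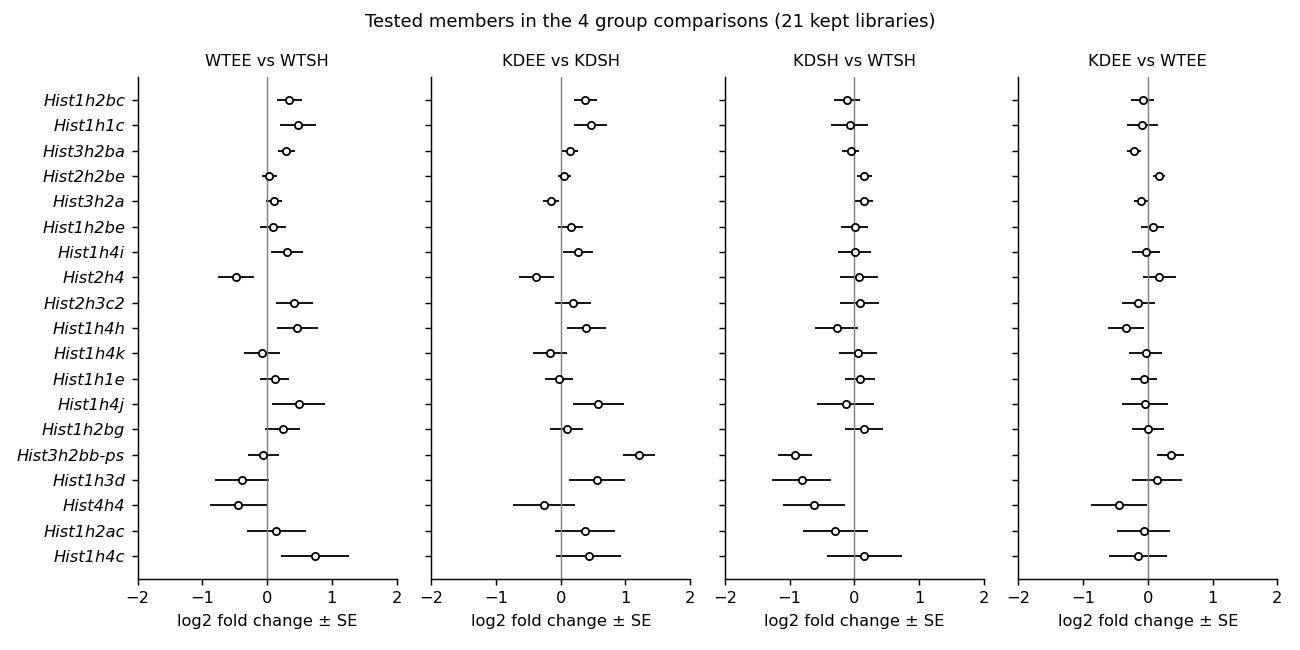
Log2 fold change ± SE of the 19 tested members in the 4 group comparisons of the kept libraries. Hist3h2bb-ps lay farthest from 0, at 1.20 for enrichment in MSK1 KD and -0.92 for genotype in standard housing, and no member passed the adjusted threshold in any of the 4.

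The median log2 fold change over the 19 members was 0.14 for enrichment in WT and 0.19 for enrichment in MSK1 KD, where the medians over all genes were 0.0065 and 0.0016. It was 0.0066 for genotype in standard housing and -0.063 for genotype in enrichment. With enrichment 14 of the 19 members had a positive value in WT and 14 in MSK1 KD. The WT median and count include WTEE-10, without which the changes of Hist3h2ba, Hist1h2bc and Hist1h1c were smaller, as given above.

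The genes that work with these histones were examined as fixed lists. Of 20 genes of S phase and proliferation, such as the replication clamp Pcna and the helicase subunits Mcm2 to Mcm7, 0 passed the threshold in any of the 5 comparisons, and their summed level was 134 to 158 CPM in the kept libraries. The 5 markers of dividing cells alone summed to 3.67 to 5.84 CPM. The 11 replication-independent histone genes, most of which are polyadenylated and made throughout the cell cycle, summed to 589 ± 60.2 CPM (SD, n = 21). They also had 0 calls, with medians of 0.12 for enrichment in WT and 0.053 in MSK1 KD. The WT median includes WTEE-10, where they summed to 820 CPM against 554 to 600 CPM in the other WTEE libraries. Without WTEE-10 the WTEE mean was 581 ± 18.4 CPM (n = 5), against 565 ± 14.8 CPM in WTSH (n = 4). Of 18 genes of histone mRNA 3′ end processing, transcription and decay, 17 were in the files and had 0 calls, and so had the 10 histone chaperones.

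The histone genes differed more between left-out and kept libraries than in any of the group comparisons. Because they were set aside for technical properties, and because all 3 came from standard-housed mice, the comparison describes libraries and not a treatment. Of the 19 members that passed the filter on the kept libraries alone, 18 could be tested, and 3 of them were called, all higher in the left-out libraries (Hist1h4c, Hist1h1e and Hist1h4h). The share over all 19816 genes was 1.21%, and that of genes called higher was also 1.21%. Another 2 members, Hist1h4d and Hist1h3e, entered the test only through their counts in the left-out libraries and were called too, but a member admitted in this way had to differ. Against the standard-housed kept libraries alone 16 members could be tested, of which 2 were called higher (Hist1h1e and Hist1h4h), where 0.199% of all genes were called. At an unadjusted p under 0.05 it was 8 of the 18, all higher, where 5.87% of all genes had such a p. The median log2 fold change of the 18 was 0.53, and that of all genes was -0.0059. The member of the 19 that could not be tested was Hist1h2ac, which went the other way. It had 0.103 CPM in the pooled left-out libraries (7 counts) and 0.173 CPM in the pooled kept ones.

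Hist1h4d, an H4 gene, stood at 5.37 CPM in WTSH-4, 7.40 in WTSH-7 and 1.62 in KDSH-6, from 66, 130 and 62 counts. In the kept libraries it ranged from 0.0237 to 0.290 CPM with a median of 0.142. All 3 left-out libraries lay above all kept ones, with the KDSH-6 value the lowest of the 3. The log2 fold change was 5.11 (SE 0.33, adjusted p = 1.71e-09 by edgeR). Because Hist1h4d entered the test only through its counts in the left-out libraries, this call was close to fixed and its p-value carries no weight.

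Hist1h4c, another H4 gene, stood at 3.42, 3.98 and 1.15 CPM in WTSH-4, WTSH-7 and KDSH-6, against 0 to 0.342 CPM with a median of 0.166 in the kept libraries. The log2 fold change was 4.17 (SE 0.45, adjusted p = 5.52e-06 by edgeR). The H3 gene Hist1h3e stood at 1.63, 1.31 and 0.574 CPM, against 0.0184 to 0.332 CPM with a median of 0.0698, and its log2 fold change was 3.33 (SE 0.53, adjusted p = 0.00147 by edgeR). Neither gene overlapped between left-out and kept libraries. Hist1h3e entered the test as Hist1h4d did, so its call and p-value carry no weight either.

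Hist1h1e, a linker histone gene, stood at 5.37, 3.41 and 1.46 CPM, against 0.427 to 1.05 CPM with a median of 0.702, and its log2 fold change was 2.11 (SE 0.28, adjusted p = 0.000124 by edgeR). Its exons overlapped those of Hist1h2be and Gm11398 over 25.7% of their length. Hist1h4h stood at 3.82, 4.55 and 2.74 CPM, against 0.540 to 3.02 CPM with a median of 1.05, with a log2 fold change of 1.90 (SE 0.30, adjusted p = 0.0014 by edgeR). It overlapped through WTEE-10, which was the kept library at 3.02 CPM. Besides the 4 genes without overlap, Hist1h2bg also had all 3 left-out libraries above all kept ones (log2 fold change 1.14, adjusted p = 0.0563 by edgeR). Among the 18 tested members that passed the filter on the kept libraries, 3 had no overlap (Hist1h4c, Hist1h1e and Hist1h2bg), where 0.278% of all genes had all left-out above all kept libraries. For Hist1h4d and Hist1h3e this was close to fixed by the filter.

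The H4 gene Hist4h4 (1.81, adjusted p = 0.0625 by edgeR) and the H3 gene Hist1h3d (1.56) followed with no call. The lowest log2 fold changes were those of Hist2h2be (-0.16), Hist1h1c (0.02) and Hist3h2a (0.06), all 3 among the 6 highest members. On CPM without scaling factors, where the median of all genes was -0.29, Hist1h1c and Hist3h2a turned to -0.26 and -0.22 and Hist2h2be was called lower at -0.44. Of these 6, 0 were called, and their median log2 fold change was 0.074.

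The members were also read by their annotated transcript ends, as a description. Of the 8 tested members with AATAAA at a transcript end, 0 were called, and their median was 0.17. Hist1h2be is among these 8 through a transcript other than the one with its stem-loop. Of the 10 without it that passed the filter on the kept libraries and could be tested, 3 were called, with a median of 1.04. Hist1h2ac, which also had no AATAAA and was lower in the left-out libraries, was not tested and is not in this median. No test was made between the 2 sets. The count of 0 does not hold under other settings, since Hist4h4, which ends near AATAAA, was called with plain CPM, with DESeq2, with no filter on low counts and without KDSH-6, WTEE-10 or KDSH-1, and Hist1h4a, another such H4 gene that was not tested above, was called with DESeq2 and with no filter. Hist1h4h, which was called, ended near ATTAAA, whereas Hist1h2bc, with a log2 fold change of 0.087, had no AATAAA.

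**Figure D4:**
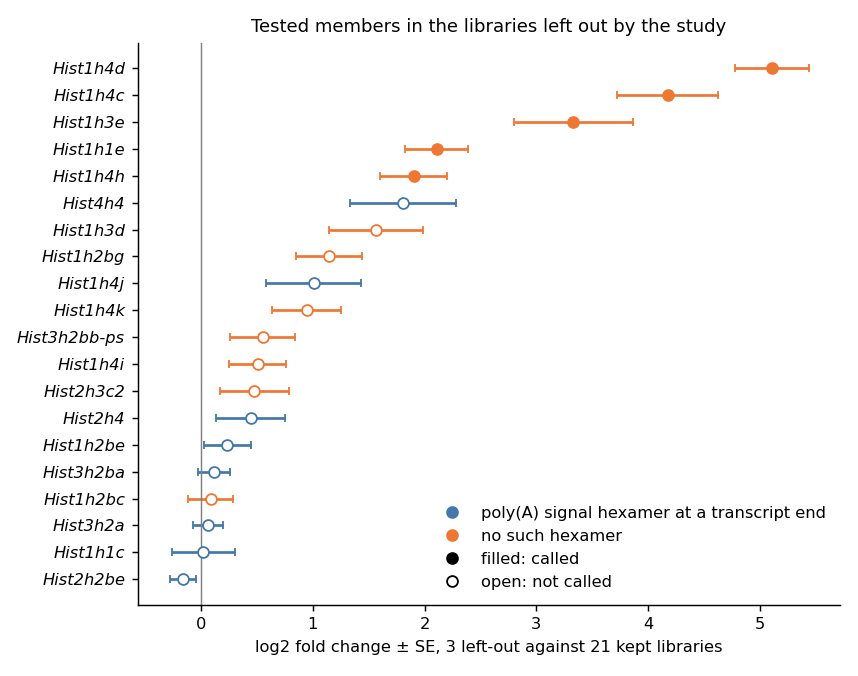
Log2 fold change ± SE of the 20 tested members between the 3 left-out and the 21 kept libraries, coloured by the hexamer at the annotated transcript end, with filled points for members past the threshold. Hist1h4d, Hist1h4c and Hist1h3e lay highest at 5.11, 4.17 and 3.33, and the 6 members with the highest levels lay near 0. Hist1h4d and Hist1h3e were tested only through their counts in the left-out libraries, so their places were close to fixed by the filter.

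As a share of histone counts, the 6 highest members held 86.4 to 90.5% in the kept libraries, 64.6% in WTSH-4, 59.7% in WTSH-7 and 80.6% in KDSH-6. The other 64 summed to 11.5 ± 2.10 CPM (SD, n = 21, range 8.07 to 17.1) in the kept libraries and to 41.7, 49.0 and 22.5 CPM in the left-out ones, from 512, 861 and 862 counts. The total over all 70 was 116 to 121 CPM in the left-out libraries, within the range of all kept ones. It lay above every kept standard-housed library, which had 77.1 to 102 CPM in WTSH and 76.2 to 102 CPM in KDSH. This depended on the scaling factors. On CPM without them the total was 91.6 in WTSH-4, 91.6 in WTSH-7 and 112 in KDSH-6. The kept standard-housed libraries then ran from 80.2 (KDSH-24) to 108 CPM (KDSH-18), so only KDSH-6 lay above them. Pooled over libraries, H4 genes were 2.92 times and H3 genes 2.49 times as high in the left-out as in the kept libraries, whereas the ratio was 1.05 for H1, 1.11 for H2A and 0.997 for H2B genes. Among the 51 members that did not pass the filter 33 were higher, 9 lower and 9 at 0, so that 78.6% of the 42 with a count were higher, with a pooled ratio of 7.98. Over all 17990 genes outside the filter with a count 41.2% were higher, with a pooled ratio of 1.71. Genes outside the filter are low in the kept libraries by choice, and no test was made of them. The H4 gene Hist1h4f, named after its values were seen, went from 0.0174 CPM in the pooled kept libraries (18 counts in all 21) to 56.7 times that level, with 13, 33 and 21 counts in the 3 left-out libraries. Hist1h3f (17.5 times) and Hist1h1d (15.2 times), also named after the fact, were among the other large pooled ratios.

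The read assignment of the left-out libraries differed as well. Reads assigned to no gene made up 8.41 to 15.7% in the kept libraries and 32.2, 33.0 and 16.4% in WTSH-4, WTSH-7 and KDSH-6. Ambiguous reads made up 4.14 to 6.57% and 16.97, 17.2 and 9.40%. The part of these in the histone levels was not tested.

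Rn18s-rs5, a gene for 18S ribosomal RNA, whose product has no long poly(A) tail, took 10.7% of the reads on genes in WTSH-4, 11.7% in WTSH-7 and 2.94% in KDSH-6, against 0.0103 to 0.776% in the kept libraries. Its share was set beside the histone levels to ask whether the less abundant histone genes moved with it also within the kept libraries. On these 21 libraries a slope on the log2 share passed an adjusted p under 0.05 for 0 of 19 members, where 0.0842% of the genes tested passed. At an unadjusted p under 0.05 it was 2 of 19, where 5.96% of all genes had such a p. They were Hist1h4c, with a slope of 0.32 log2 units per doubling of the share (SE 0.095, adjusted p = 0.657 by edgeR), and Hist3h2ba, with 0.064 (SE 0.024, adjusted p = 0.657 by edgeR). Of the 19, 16 had a positive slope, and the median was 0.052, against 0.0012 over all genes. This count, this median and the slope of Hist3h2ba include WTEE-10, and no values without it are given for them. WTEE-10 had a share of 0.739% and the highest Hist3h2ba level of the kept libraries, at 21.0 CPM.

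The other slopes among the 5 highest were those of Hist4h4 (0.18), Hist1h4h (0.14), Hist1h3d (0.11) and Hist1h1c (0.095). Several of these slopes depended on single libraries. That of Hist1h4c was 0.20 without WTSH-2, that of Hist1h4h was 0.081 without WTEE-10 and 0.23 without WTSH-2, and that of Hist1h1c was 0.048 without WTEE-10 and 0.17 without WTSH-2. The lowest were those of Hist2h4 (-0.088), Hist1h1e (-0.030) and Hist1h4k (-0.0055). Hist1h1e, which was called in the left-out libraries, therefore had a slope near 0 within the kept ones, and Hist1h4d did not pass the filter there. As a description over the 21 kept libraries, log2 levels (CPM plus 0.05 for single genes) correlated with the log2 share with Pearson's r = 0.691 and Spearman's rho = 0.656 for Hist1h4c, and 0.634 for r without the 2 libraries of the most distant share. For Hist1h4d they were 0.479 and 0.491, and for the other 64 members together 0.35 and 0.24. These points share the depth and the capture of each library. With all 24 libraries in the fit, 7 members passed the threshold (Hist1h1e, Hist1h3d, Hist1h3e, Hist1h4c, Hist1h4d, Hist1h4h and Hist4h4), where 1.71% of all genes passed. This count rests on the 3 left-out libraries, and Hist1h4d and Hist1h3e were tested only through them.

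**Figure D5:**
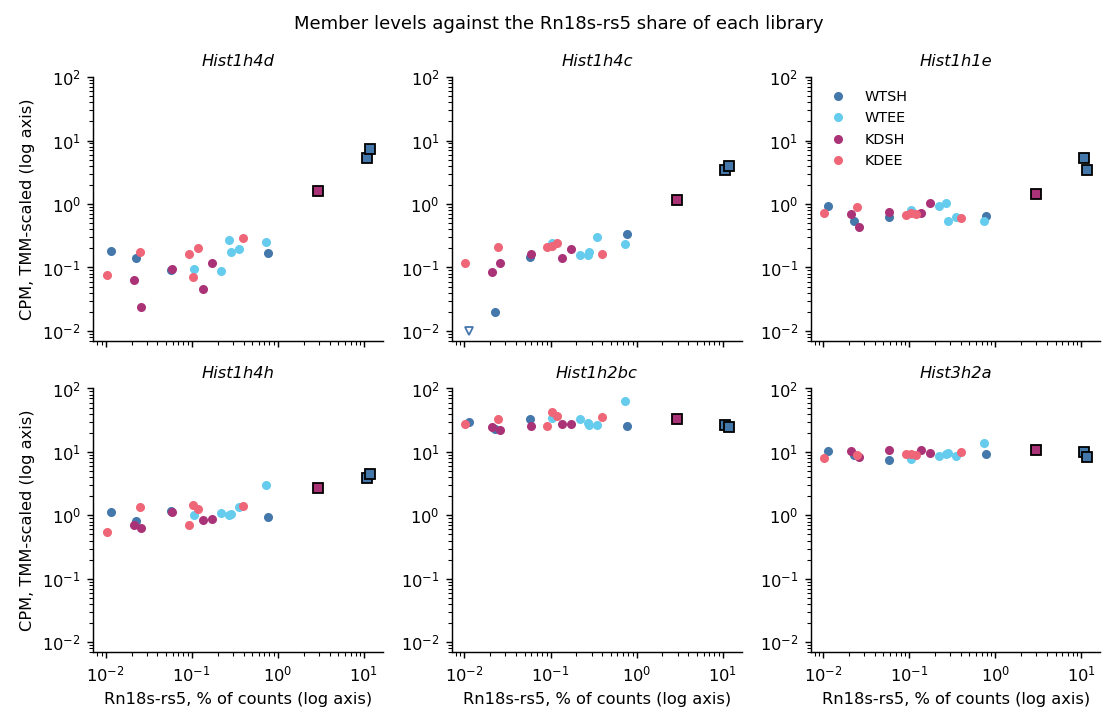
Level in CPM of 6 members against the share of Rn18s-rs5 in percent of the reads on genes, both axes on a log scale, with squares for the left-out libraries and open triangles for libraries with 0 counts. Hist1h4d, Hist1h4c and Hist1h1e reached their highest levels in WTSH-4 and WTSH-7 at shares of 10.7 and 11.7%, and Hist1h2bc and Hist3h2a showed no such points.

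Other RNAs without a poly(A) tail were read as a fixed list. Of its 10 genes 4 could be tested between left-out and kept libraries, and 4 were called higher, where 1.21% of all genes were called. The rest of the list was not tested, so the count covers these 4 only. The log2 fold changes were 6.35 for the 7SK RNA gene Rn7sk, 5.82 for the Y RNA gene Rny1, 5.405 for the RNase P RNA gene Rpph1 and 4.70 for Scarna2, a small Cajal body RNA gene. Within the kept libraries 3 of the 4 were called for the slope on the Rn18s-rs5 share, where 0.0842% of the genes tested passed. These were Rpph1 (1.22), Rn7sk (1.06) and Scarna2 (0.90). Rn7sk stood at 0.523 to 50.2 CPM in the kept libraries and at 1075 CPM in WTSH-4, 1322 in WTSH-7 and 329 in KDSH-6.

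In contrast, the replication-independent histone genes gave 0 of 11 calls with a median log2 fold change of 0.014 between left-out and kept libraries. Among them were H2afx, the H2AX gene, which held the stem-loop letters after its stop codon (0.13), and the linker histone gene H1f0 (-0.056). Genes of 3′ end processing gave 0 of 17 calls, and Slbp, which encodes the stem-loop binding protein, had a log2 fold change of -0.12 (unadjusted p = 0.237 by edgeR) at a mean of 13.7 CPM. S phase genes gave 0 of 20 calls with a median of -0.030, and histone chaperones gave 0 of 10, with the smallest p in the replication-coupled chaperone subunit Chaf1a (-0.30, adjusted p = 0.80 by edgeR).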

How the data were processed

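Hippocampal RNA was purified with Trizol and DNaseI and captured on poly-T beads, and unstranded TruSeq libraries were sequenced as paired 150-base reads on an Illumina HiSeq instrument. Per the study's methods and the submitters' processing notes, the authors checked reads with FastQC 0.11.3, trimmed them with Skewer, aligned them to GRCm38 with STAR 2.5 and deposited 1 file of raw gene counts per mouse made with HTSeq 0.6.1p1 from unique alignments. These counts were used as deposited. Rows for unassigned reads were kept out of library sizes, and no column of another sample was present.

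Genes were filtered with edgeR 4.0.16 (filterByExpr), scaled by trimmed mean of M-values and tested with the quasi-likelihood test in R 4.3.3, with p-values adjusted by Benjamini-Hochberg over all genes tested. Group comparisons used 1 model of the 21 kept libraries with 4 groups. The Rn18s-rs5 share (log2) entered a second model with the groups as covariates, and another model compared 3 left-out with 21 kept libraries. DESeq2 1.42.0, other scalings and filters, and the omission of single libraries were alternatives. Each library was 1 mouse, so p-values measure the spread between mice. Housing was given by cage, and several mice shared a cage. The cage of each mouse was not given in the sources used here, so effects of housing and of cage cannot be told apart. The lane of each sample was not given in the sources used here, and a lane effect could not be examined. Gene models, transcript ends and sequences came from GENCODE M21 (GRCm38), not the annotation release used for counting. Scripts were tested on simulated data.

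Named with values were the 15 members with the highest mean CPM, called members and the 3 with the smallest p in each group comparison, the 5 highest and 3 lowest in the left-out and share comparisons, and members set apart by their annotation. The members and gene lists were chosen with earlier results of these data known.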

Additional observations from a re-analysis of the deposited data

Results flagged for a closer look

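Each member among the 15 highest and the summed level were examined for a mouse far from the other mice of its group, in 64 groups of values, by Dixon's ratio of the gap to the range. Chance alone flags about 1 in 20 groups, and 10 of 64 were found. Of these, 9 belonged to 1 library, WTEE-10. It had 62.8 CPM of Hist1h2bc where the next WTEE library had 34.1, 42.0 CPM of Hist1h1c where the next had 21.6, and 21.0 CPM of Hist3h2ba where the next had 15.1. It also had 14.05 CPM of Hist3h2a against 9.56, 4.14 CPM of Hist1h4i against 2.21 and 3.75 CPM of Hist2h3c2 against 1.65. Hist1h4h stood at 3.02 CPM against 1.33 and Hist1h4j at 1.27 CPM against 0.494, and the summed level of all members was 176 CPM against 102. The members are measured in the same library and these 9 values are not independent. In WTEE-10 Rps6ka5 stood at 13.5 CPM, where the other kept libraries had 20.5 to 24.5 CPM, and ambiguous reads made up 6.57%, the highest share of the kept libraries. The part of these in the histone levels was not tested. The remaining flag was Hist2h4 in KDEE-20, at 2.24 CPM where the next KDEE library had 1.64 CPM.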

How the results depend on the processing

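In the 5 group comparisons 0 members were called under every alternative run. Over all genes edgeR called 0 in each, and DESeq2 called 2 and 14 for enrichment in WT and MSK1 KD, 0 and 118 for genotype in standard and enriched housing and 20 for the interaction. In the comparison of left-out with kept libraries the 5 calls became 9 with plain CPM (8 higher, and Hist2h2be lower), where 12.3% of all genes were called and the median of all genes was -0.29. They became 14 of 61 tested with no filter on low counts (1.46% of all genes), 2 of 12 with at least 10 counts in every library (0.0979% of all genes; Hist1h1e and Hist1h4h, the others of the 5 not being tested), 17 of 46 with DESeq2 (2.85%), 2 of 16 with standard-housed libraries only (0.199%), and 3 of 18 with members that pass the filter on the kept libraries, the last chosen after seeing the data. For the filters the number of members tested changed with them, and elsewhere the cause was not tested. Leaving out 1 library in turn gave 5 to 7 calls (7 without WTEE-10 or without KDSH-1), and the 5 remained called in each such fit. Hist1h4d and Hist1h3e are among these 5 and were tested only through the left-out libraries, so their calls were close to fixed by the filter. The calls over all genes ran from 43 without WTSH-7 to 558 without KDSH-6. The value of Hist1h1c in this comparison changed sign with plain CPM (-0.26), with no filter (-0.00320) and without single libraries (-0.19 to 0.17), and that of Hist3h2a with plain CPM (-0.22).

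For the Rn18s-rs5 share, 0 calls became 7 with all 24 libraries (1.71% of all genes). Slopes turned positive there for Hist2h4 (0.021), Hist1h1e (0.21) and Hist1h4k (0.097). Hist1h1e stood at 0.0040 without the 2 libraries of the most distant share and at -0.055 to 0.0029 without single libraries, and Hist1h4k at -0.070 to 0.017 without single libraries and at 0.011 without the 5 libraries high in choroid plexus markers. Without single libraries the summed level ran from 86.9 to 95.2 CPM in WTSH, 96.1 to 114 in WTEE, 85.2 to 91.6 in KDSH and 101 to 109 in KDEE. No paired analysis was possible because no mouse number occurs in more than 1 group. With a floor of 0.0412 to 0.244 CPM per library, the 51 members outside the filter are not resolved at this depth.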
